A study of Homo sapiens with 6 samples.

Results

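Regulators of G protein signaling, the RGS proteins, were described in IKPRAB36 cells, Ishikawa endometrial cancer cells that express both isoforms of the progesterone receptor, PRA and PRB. They were represented by 10 genes, namely RGS2, RGS3, RGS4, RGS5, RGS10, RGS12, RGS14, RGS16, RGS17 and RGS19, out of 19775 genes on the array. All 34 probe sets annotated to 1 of these genes alone were used, out of 54613 probe sets tested, and no filter on low signals was applied. The cells were cultured for 48 h with 1 nM MPA (medroxyprogesterone acetate, a synthetic progestin; 3 arrays, MPA 1 to 3) or for 48 h without it (3 arrays, control 1 to 3). The medium of both groups held charcoal-stripped serum, which is poor in steroid hormones, and hygromycin and neomycin. IKPRAB36 is 1 line into which the receptors were introduced, so the values describe that line only. That the 3 arrays of a group came from separate cultures is not stated in the sources used here. A p-value here therefore weighs the difference between groups only against the scatter between arrays, and that scatter may be technical.

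A G protein-coupled receptor switches on a G protein by letting its alpha subunit take up GTP, and alpha and beta-gamma subunits then act on effectors such as phospholipase C. RGS proteins speed up the hydrolysis of that GTP and so shorten the signal. They differ in the alpha subunits they act on: RGS2 acts mainly on Gq, RGS3, RGS4, RGS5 and RGS16 on Gi and Gq, RGS10, RGS12 and RGS14 on Gi, and RGS17 and RGS19 belong to the RZ subfamily, known for its action on Gz and Gi.

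Of the RGS genes, RGS2 was higher with MPA and RGS3 was lower at only the brightest of its 3 probe sets. None of the other 8 passed the test. By the brightest probe set, 1.74% of all genes were higher and 1.16% lower. The calls of RGS2 and RGS3 were each lost in some fits with 1 array left out. The sequences around the annotated starts of these genes are shown as the DNA beside the starts that RefSeq annotates for the called genes, and of the RGS3 windows those with a match to the letters searched were chosen. Each window runs from 250 bases before to 50 bases after an annotated start, taken from RefSeq on build GRCh38.p14. RefSeq gave 1 window for RGS2 and 5 for RGS3, and all 10 genes together had 24 windows. The RGS2 window (chr1:192808789-192809088, plus strand) and the RGS3 windows that hold the letters TGTTCT or AGAACA (window 3, chr9:113501257-113501556, and window 5, chr9:113580678-113580977, both plus strand) read as follows, with the matches in capitals.
RGS2: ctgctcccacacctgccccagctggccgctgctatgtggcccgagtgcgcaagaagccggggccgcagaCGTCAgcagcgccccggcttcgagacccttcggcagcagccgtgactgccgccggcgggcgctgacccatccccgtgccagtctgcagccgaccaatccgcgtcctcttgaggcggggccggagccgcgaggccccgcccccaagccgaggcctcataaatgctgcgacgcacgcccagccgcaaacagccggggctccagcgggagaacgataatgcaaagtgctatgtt
RGS3 window 3: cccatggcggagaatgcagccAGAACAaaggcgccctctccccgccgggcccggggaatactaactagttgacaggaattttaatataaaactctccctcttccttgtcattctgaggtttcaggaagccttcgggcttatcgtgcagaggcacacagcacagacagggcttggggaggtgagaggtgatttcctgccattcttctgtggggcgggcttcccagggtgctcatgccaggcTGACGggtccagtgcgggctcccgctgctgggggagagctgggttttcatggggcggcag
RGS3 window 5: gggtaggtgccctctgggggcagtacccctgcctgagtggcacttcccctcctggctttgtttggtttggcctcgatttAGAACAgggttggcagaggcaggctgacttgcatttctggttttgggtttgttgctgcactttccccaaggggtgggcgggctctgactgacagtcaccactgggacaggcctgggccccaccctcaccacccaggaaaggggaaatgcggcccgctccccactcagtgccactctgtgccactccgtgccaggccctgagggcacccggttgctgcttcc

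The capitals mark TGTTCT, one side of the element bound by progesterone and glucocorticoid receptors, read as AGAACA on the other strand, and TGACG, one side of the cAMP response element, read as CGTCA on the other strand. TGTTCT in either reading occurred in 14.8% of 35116 windows of this length and in 3 of the 24 RGS windows, of which 2 belonged to RGS3 (first base of the match at positions -229 and -171 from the start) and 1 to RGS12. The RGS2 window did not hold these letters. The whole cAMP response element TGACGTCA, which contains TGACG, occurred in 1.85% of all windows and in 0 of the 24. TGACG alone, searched after the RGS2 sequence had been seen, occurred in 24.6% of all windows and in 5 of the 24. Among them were the RGS2 window (position -181) and RGS3 window 3 (position -10). RGS4 windows 2 and 3 overlap and held the same match (positions -32 and -139). These matches describe letters only, and which RGS3 start gave the transcripts measured was not tested.

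Signals were deposited by the authors as log2 RMA values, with array medians of 5.16 to 5.28. The array MPA 3 stood apart in the poly-A control probe sets added to the RNA (mean log2 signal 6.65, where the remaining 5 had 8.24 to 9.04) and for 18S ribosomal RNA (7.06, where the remaining 5 had 8.09 to 9.44). PGR, the progesterone receptor gene, had a log2 signal of 10.70 ± 0.33 with MPA and 10.22 ± 0.04 in control cells (SD, n = 3 arrays each; adjusted p = 0.294, limma), while a dimmer PGR probe set lay under the median of every array. The epithelial keratins KRT8 (13.35 with MPA, 13.12 in control cells) and KRT18 (14.05 with MPA, 14.02 in control cells) lay far above the array medians, and ESR1, the estrogen receptor, was at 5.74 with MPA and 5.79 in control cells. EPCAM, PAX8 and CDH1, other epithelial markers, had log2 fold changes of -0.54, -0.44 and -0.76. Their adjusted p-values were 0.0586, 0.0762 and 0.128 (limma), and CDH1 was called without control 2 (0.0331). For all 3 the MPA arrays lay below all control arrays, a pattern of 7.43% of all probe sets. For PGR and KRT8 the MPA arrays lay above all control arrays at the brightest probe set, as at 7.94% of all probe sets. Of the markers of other cells, 3 of 4 immune, 4 of 5 pericyte and endothelial and 2 of 4 fibroblast genes lay under the median of all 6 arrays, and none of them passed the test. COL1A1, a collagen gene on the fibroblast list, had log2 signals of 8.30, 8.04 and 8.17 with MPA, against 9.27, 8.41 and 9.24 in control cells (log2 fold change -0.81, adjusted p = 0.168, limma), and was called without control 2 (adjusted p = 0.00516). The summed log2 signals of these lists were 16.35 to 17.51 with MPA and 16.63 to 17.47 in control cells for the immune genes, 21.54 to 23.20 with MPA and 22.09 to 22.92 in control cells for the pericyte and endothelial genes, and 20.55 to 21.30 with MPA and 20.78 to 22.18 in control cells for the fibroblast genes, and their part in the RGS results was not tested.

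The comparison of MPA with control arrays was fitted with limma across all 54613 probe sets. A probe set was called at an adjusted p under 0.05 (Benjamini-Hochberg over all of them) and a log2 fold change of 0.32 or more in either direction. By this rule 1.21% of all probe sets were higher with MPA and 0.813% were lower, and among the 34 RGS probe sets 1 was higher and 1 was lower. For genes represented by their brightest probe set, 1.74% of the 19775 genes were higher and 1.16% were lower. The median log2 fold change was -0.04 over the RGS probe sets and 0.01 over all probe sets. With 3 arrays in each group, the lowest p of an exact permutation test on a single value is 0.1, so only the fit across all probe sets was used.

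RGS2, which limits Gq signaling, rose with MPA. Its only probe set, 202388_at, had log2 signals of 9.05, 9.36 and 8.76 on the MPA arrays, against 7.66, 8.13 and 7.67 on the control arrays. The lowest MPA array lay above the highest control array, and array 2 was the brightest of both groups. The means were 9.05 ± 0.30 with MPA and 7.82 ± 0.27 in control cells (SD, n = 3 each). The log2 fold change was 1.23 (standard error 0.19, 95% interval 0.81 to 1.66), a 2.35-fold increase with an adjusted p of 0.0120 (limma). RNA of whole cultures was measured, so a larger share of cells with RGS2 RNA and more RGS2 RNA in each cell cannot be told apart. Of the 6 fits with an array left out, the RGS2 call held in 3. The adjusted p was 0.0102 without MPA 3, 0.0349 without MPA 2 and 0.00737 without control 2, but it was 0.069 without MPA 1, 0.0696 without control 1 and 0.078 without control 3. The log2 fold change itself lay between 1.08 (without MPA 2) and 1.39 (without control 2) in these fits. In limma's treat test, which asks whether the change is larger than that minimum, RGS2 had an adjusted p of 0.0591.

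RGS3, which acts on Gi and Gq, fell with MPA at its brightest probe set. Probe set 203823_at had log2 signals of 8.73, 8.74 and 8.92 on the MPA arrays, against 9.65, 9.40 and 9.41 on the control arrays. All MPA arrays lay below all control arrays, with control 1 the highest. The means were 8.80 ± 0.11 with MPA and 9.49 ± 0.14 in control cells (SD, n = 3 each). The log2 fold change was -0.69 (standard error 0.12, 95% interval -0.95 to -0.42), a 1.61-fold lower signal with an adjusted p of 0.0213 (limma). The other RGS3 probe sets did not pass the test: the log2 fold change was -0.27 for 220300_at (adjusted p = 0.687) and -0.00 for 232223_at (adjusted p = 0.998). Both lay under the median on all 6 arrays. With the mean of the 3 probe sets in place of the brightest one, the log2 fold change of RGS3 was -0.32 and its adjusted p over genes was 0.231.

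Of the 6 fits with an array left out, the RGS3 call held in 2. It held without MPA 3 (log2 fold change -0.75, adjusted p = 0.0232) and without control 2 (-0.73, adjusted p = 0.0361). It was lost without MPA 1 (adjusted p = 0.125), MPA 2 (0.0803), control 1 (0.0999) or control 3 (0.0928), with log2 fold changes of -0.61 to -0.73. Its adjusted p in the treat test was 0.397.

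**Figure D1:**
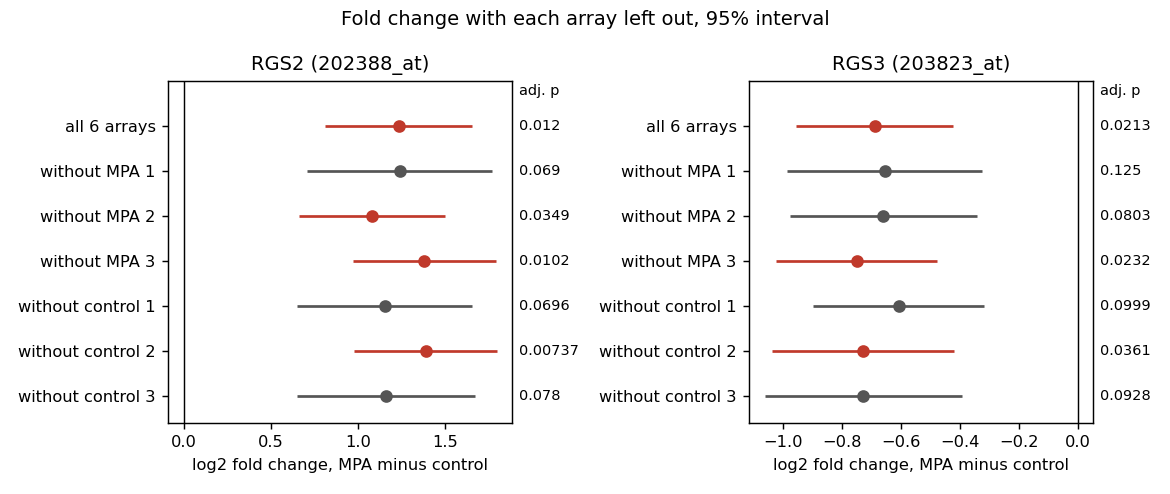
Log2 fold change of RGS2 (left) and RGS3 (right), MPA minus control, with all 6 arrays and with each array left out (points, with 95% intervals; red where the call held, grey where it did not; the adjusted p of limma at the right of each row). Every interval lay on the same side of 0, while the adjusted p of RGS2 was above 0.05 in 3 fits and that of RGS3 in 4.

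RGS4, RGS5 and RGS16 are small RGS proteins that act, as RGS3 does, on Gi and Gq. RGS16 had 3 probe sets. The brightest, 209325_s_at, had log2 signals of 5.54, 5.37 and 5.82 on the MPA arrays, against 5.89, 5.69 and 6.11 on the control arrays, and the log2 fold change was -0.32 (95% interval -0.68 to 0.04, adjusted p = 0.567). The groups overlapped, since MPA 3 was above control 2. The second RGS16 probe set, 209324_s_at, had log2 signals of 4.90, 5.34 and 5.35 with MPA, against 6.17, 5.32 and 5.53 in control cells (log2 fold change -0.48, adjusted p = 0.534), where control 1 was the highest and control 2 lay within the MPA range. The third, 242212_at, under the median on all arrays, had a log2 fold change of 0.14.

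RGS5, known as a marker of pericytes, gave dim signals at most of its probe sets. Its brightest probe set, 209070_s_at, had log2 signals of 5.76, 5.69 and 5.97 on the MPA arrays, against 6.0, 6.11 and 5.84 on the control arrays. The groups overlapped and the log2 fold change was -0.18 (95% interval -0.46 to 0.10, adjusted p = 0.754). The log2 fold changes of its 6 probe sets ran between -0.25 and 0.11, with 3 above and 3 below 0, and 4 of the 6 lay under the median on all arrays. The pericyte markers PDGFRB (4.15 with MPA, 4.09 in control cells) and CSPG4 (3.92 with MPA, 4.03 in control cells) were under the array medians at their brightest probe sets. The brightest RGS5 probe set lay above the median on all 6 arrays. RGS4 lay under the median of every array at all 3 of its probe sets, with log2 signals of 4.59, 4.55 and 5.17 with MPA, against 4.83, 4.72 and 4.89 in control cells, at the brightest, 204339_s_at. The groups overlapped and the log2 fold change was -0.04 (adjusted p = 0.979). Signals this low do not tell whether RGS4 was expressed.

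RGS10, RGS12 and RGS14 act on Gi, and RGS12 and RGS14 also carry a Ras-binding region and a GoLoco motif that binds alpha subunits. RGS10 had log2 signals of 7.24, 7.12 and 7.17 on the MPA arrays, against 7.05, 6.84 and 7.02 on the control arrays, at 204319_s_at. All MPA arrays lay above all control arrays, but the log2 fold change of 0.21 (95% interval -0.03 to 0.45) did not pass the test (adjusted p = 0.594, limma). Its other probe sets had log2 fold changes of 0.18 and -0.04. RGS14 had 3 probe sets with log2 fold changes of 0.07 to 0.10, all above 0 and none called. The brightest, 38290_at, had log2 signals of 7.06, 7.15 and 7.45 with MPA, against 7.32, 6.90 and 7.22 in control cells, so that the groups overlapped.

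RGS12 had 10 probe sets, of which 4 had a positive and 6 a negative log2 fold change, between -0.30 and 0.11. The brightest, 242079_at, had log2 signals of 5.99, 5.76 and 6.01 on the MPA arrays, against 6.17, 6.05 and 6.45 on the control arrays. All MPA arrays lay below all control arrays, and the log2 fold change was -0.30 (95% interval -0.61 to 0.01, adjusted p = 0.50). The log2 fold change was 0.04 at 205823_at and -0.10 at 209637_s_at. Of the 10, 5 lay under the median on all arrays, among them 1555022_at, where the MPA arrays were also all below the control arrays (log2 fold change -0.16). No RGS12 probe set passed the test.

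RGS17 and RGS19 are the RZ members. RGS17 had 1 probe set, 220334_at, with log2 signals of 5.71, 5.98 and 5.01 on the MPA arrays, against 5.74, 6.88 and 5.85 on the control arrays. Its spread was the widest of the 34 probe sets (SD 0.50 with MPA and 0.63 in control cells), with MPA 3 the lowest and control 2 the highest, and the groups overlapped. Its log2 fold change of -0.59 had a 95% interval of -1.36 to 0.17 (adjusted p = 0.654), an interval that held 0 as well as the change of RGS3. RGS19, also called GAIP, was bright, with log2 signals of 8.32, 8.25 and 8.54 with MPA, against 8.62, 8.33 and 8.48 in control cells (204336_s_at). The groups overlapped and the log2 fold change was -0.10 (95% interval -0.39 to 0.18, adjusted p = 0.895).

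**Figure D2:**
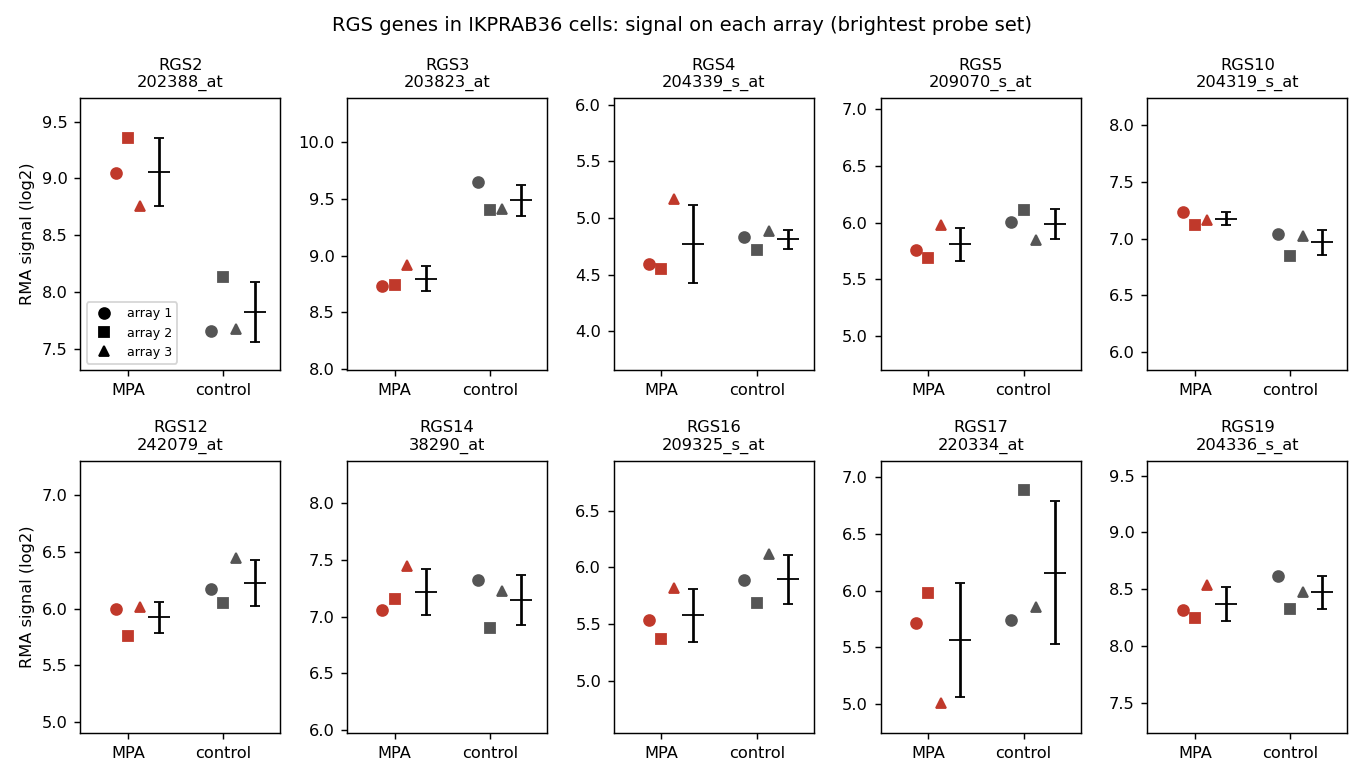
Log2 RMA signal of the brightest probe set of each RGS gene on every array (red, MPA; grey, control; the marker shape gives the array number; crossbars and whiskers are mean and SD of 3 arrays; each panel spans the same log2 width at its own level). The MPA arrays of RGS2 and RGS10 lay above and those of RGS3 and RGS12 below all control arrays, and the groups of the other 6 genes overlapped.

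Over the 34 probe sets, 15 log2 fold changes were positive and 19 negative. The MPA arrays were all above the control arrays at 3 probe sets (RGS2, RGS10 and 204338_s_at of RGS4, the last with a log2 fold change of 0.13 under the array medians), while 7.94% of all probe sets had this pattern. They were all below at 3 (203823_at of RGS3 and both named probe sets of RGS12), against 7.43% of all probe sets. The 32 probe sets that were not called had log2 fold changes of -0.59 to 0.21 and adjusted p-values of 0.50 to 0.998. The 95% intervals of 28 of these 32 reached a log2 change of 0.32 in 1 direction or both, the widest being that of RGS17, so a change of that size at these probe sets was within the error of 3 arrays a group. None of the 32 was called with any array left out, the lowest adjusted p in those fits being 0.234. Of the 34, 17 lay under the median on all arrays, 12 above it on all arrays and 5 on both sides. Among the brightest probe sets, the arrays numbered 2 were the lowest of both groups for RGS4, RGS10, RGS12, RGS16 and RGS19 and the highest of both for RGS2 and RGS17. Over all genes, they were the lowest of both groups for 28.6% and the highest of both for 16.2%.

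**Figure D3:**
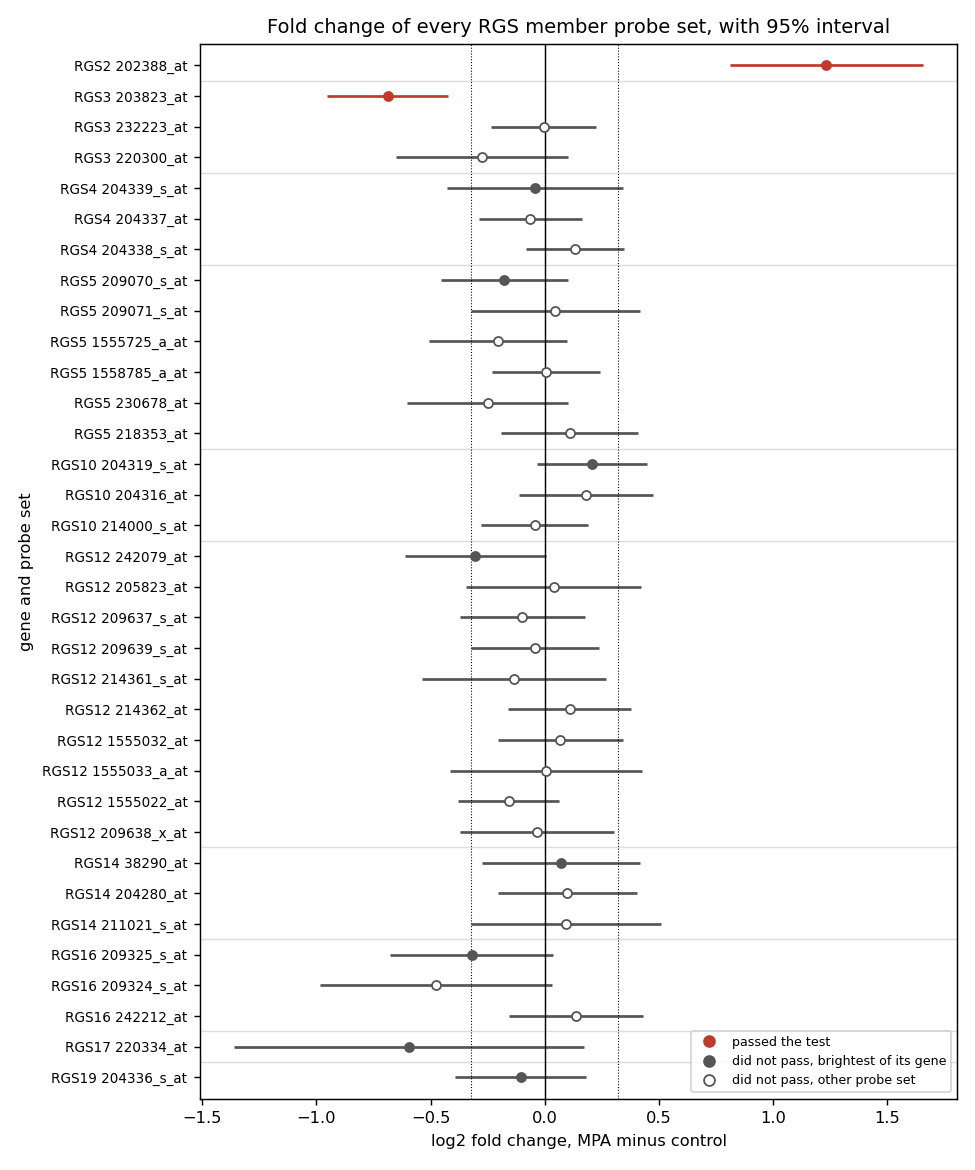
Log2 fold change, MPA minus control, of all 34 RGS probe sets with 95% intervals (red, passed the test; filled grey, brightest probe set of a gene that did not pass; open, other probe sets; dotted lines mark a log2 change of 0.32 in either direction). Only the intervals of RGS2 (0.81 to 1.66) and of RGS3 203823_at (-0.95 to -0.42) lay wholly beyond the dotted lines.

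The rest of the G protein pathway was described with lists of genes, each gene by its brightest probe set. The lists were chosen with earlier results of these data known. Over all genes the median log2 fold change was 0.02, and 1.74% were called higher and 1.16% lower. Of 10 other RGS genes measured, none was higher or lower at an adjusted p of 0.596 or more, the median log2 fold change was 0.01, and none of their 23 probe sets was called. Among them were RGS1 (0.02), RGS7 (-0.31) and RGS20 (0.02), and 7 of the 10 lay under the median of all arrays. RGS21 was not analysed here. Of 16 other proteins with an RGS homology region, such as receptor kinases and axins, 1 was higher and none lower, with a median of 0.10. The higher one was GRK4, a G protein-coupled receptor kinase, with log2 signals of 6.43, 6.25 and 6.23 with MPA, against 5.78, 5.50 and 5.49 in control cells. Its MPA arrays were all above the control arrays (log2 fold change 0.71, adjusted p = 0.0222, limma), but the adjusted p was 0.126 without MPA 1, 0.0638 without MPA 2, 0.0585 without control 2 and 0.142 without control 3, and 0.374 in the treat test.

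Of the 15 alpha subunits listed, of any class, none passed the test by its brightest probe set (0 higher, 0 lower, median log2 fold change 0.05). GNAQ, the Gq subunit on which RGS2 acts, had a log2 fold change of 0.30 (10.01 ± 0.25 with MPA, 9.71 ± 0.32 in control cells, SD, n = 3 each, adjusted p = 0.707, limma), and GNA11 one of 0.07. The Gi subunits GNAI1, GNAI2 and GNAI3 had log2 fold changes of -0.19, 0.06 and 0.36 and overlapped between groups. A dimmer probe set of GNAS, which encodes Gs, was called at 0.88 (214157_at, adjusted p = 0.00743), while the brightest GNAS probe set had 0.04. This call was lost without MPA 1 (adjusted p = 0.0546), without control 3 (0.0586) and in the treat test (0.0784). Of 17 beta and gamma subunits none was higher or lower (median 0.11).

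Among the effectors of Gq, PLCB4, a phospholipase C, had log2 signals of 9.32 ± 0.30 with MPA and 8.08 ± 0.68 in control cells (SD, n = 3 each). All MPA arrays lay above all control arrays, with a log2 fold change of 1.245 (95% interval 0.54 to 1.95) that did not pass the test (adjusted p = 0.116, limma). None of the 7 effectors passed it (median 0.07). Without control 2, 2 of the 7 were called higher, PLCB4 (1.63, adjusted p = 0.00354) and PLCB1 (0.94, adjusted p = 0.0456). Without any 1 of the other arrays neither was called, with adjusted p-values of 0.127 to 0.43 for PLCB4 and 0.418 to 0.968 for PLCB1. Of 9 other modulators of G proteins, RASD1, a Ras-like protein that acts on G protein signaling, was the only one called. Its log2 signals were 11.06, 10.74 and 11.34 with MPA, against 6.35, 5.90 and 6.14 in control cells (log2 fold change 4.92, 30.2-fold, adjusted p = 8.64e-06, limma). The median of the modulators was 0.12, and RIC8A was not analysed here.

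Of 19 measured receptors of the Gi and Gq list, 1 was higher and 2 were lower (median 0.00). Of all genes, 1.74% were higher and 1.16% lower, and this list was chosen with earlier results of these data known. CXCR4, the receptor of the chemokine CXCL12, had log2 signals of 8.68, 8.36 and 8.66 with MPA, against 5.00, 4.58 and 4.68 in control cells (log2 fold change 3.82, adjusted p = 1.05e-05, limma). The control arrays lay under the array medians, so the size of this change is that of the RMA signals. It was smaller at the other called CXCR4 probe sets, 209201_x_at (2.59, adjusted p = 0.00041) and 211919_s_at (2.79, adjusted p = 0.0004). ACKR3, which binds CXCL12 too but signals mainly without G proteins, had 6.16, 6.14 and 6.35 with MPA, against 7.92, 7.38 and 7.94 in control cells (-1.53, adjusted p = 0.00206). ADRA2C, an alpha2 adrenergic receptor coupled to Gi, had 5.94, 6.09 and 5.99 with MPA, against 6.82, 6.76 and 6.91 in control cells (-0.82, adjusted p = 0.00459). The groups of these 3 receptors did not overlap, and the calls of RASD1 and of the 3 receptors held with each array left out. In the treat test ADRA2C was not called (adjusted p = 0.0599).

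**Figure D4:**
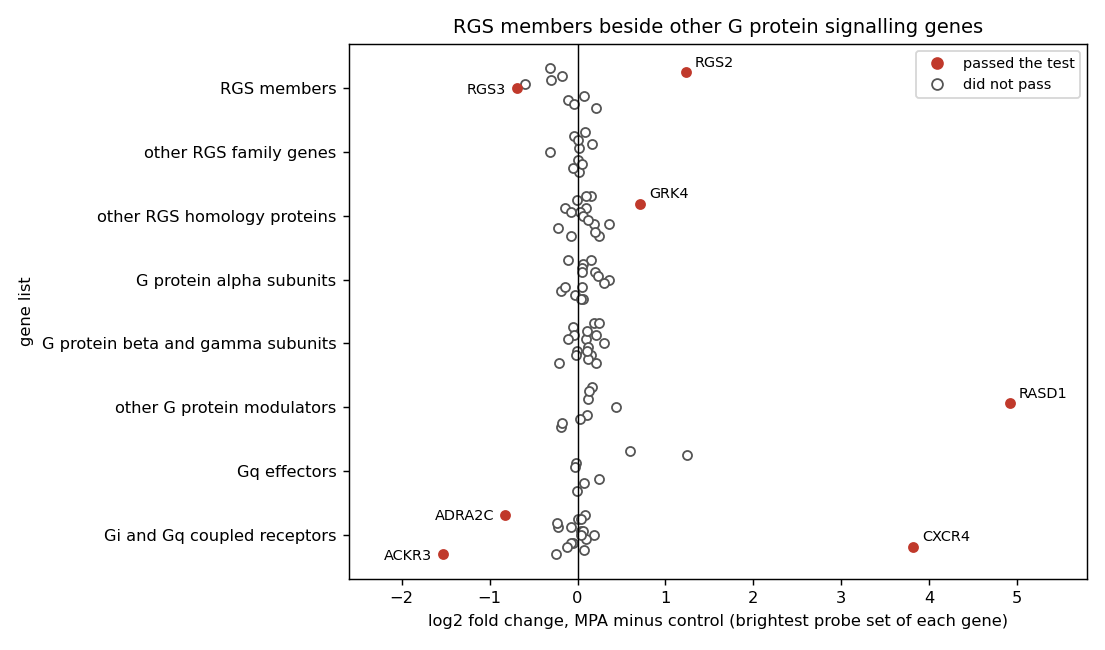
Log2 fold change, MPA minus control, of the 10 RGS genes and of 7 lists of other G protein signaling genes, 1 point per gene (brightest probe set; red and named where the gene passed the test, open where it did not; the vertical scatter within a list has no meaning). RGS2 lay at 1.23 and RGS3 at -0.69, and the largest changes were those of RASD1 (4.92) and CXCR4 (3.82).

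Several RGS genes lie beside other RGS genes in the genome: RGS2 next to RGS13 and, beyond it, RGS1 on chromosome 1, RGS4 next to RGS5, and RGS16 next to RGS8. Of the 3 genes on either side of RGS2, 5 were measured and none was called, with log2 fold changes of 0.02 for RGS1, 0.01 for RGS13 and 0.28 for UCHL5. RGS1 (2.63 with MPA, 2.61 in control cells) and RGS13 (2.52 with MPA, 2.51 in control cells) lay under the medians of all arrays. Over all members, 48 distinct neighbours that are not RGS members were measured, of which 3 were higher and 2 lower. By the brightest probe set, 1.74% of all genes were higher and 1.16% were lower. Of the 5 called neighbours, 4 lay by members that were not called. They were INPP5F by RGS10 (log2 fold change 1.39), TEDDM1 by RGS16 (1.56), and GRK4 (0.71) and DOK7 (-1.25) by RGS12. The remaining one was among the 6 genes around RGS3 on chromosome 9: AMBP, which encodes alpha-1-microglobulin and bikunin, was lower (log2 fold change -1.29, adjusted p = 0.00328, limma), with each array left out as well. ZNF618, between the pair, stood at -0.57 with an adjusted p of 0.0704, which was 0.0383 without MPA 3 and 0.0649 to 0.31 without any 1 of the other arrays.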

How the data were processed

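RNA of IKPRAB36 cells was hybridized to Affymetrix U133 Plus 2.0 arrays, 3 of cells with 1 nM MPA and 3 of cells without it, both for 48 h. The authors deposited log2 signals from RMA, a method that removes background, brings arrays to a common distribution and condenses probes into probe sets, and no step of it was repeated. Its software version: not given in the sources used here. Of 54675 probe sets, 62 Affymetrix controls were left out. Groups were taken from the sample labels.

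The platform annotation gave the gene names, and Entrez identifiers served to update symbols: 41091 had 1 symbol, 1801 several and 11721 none, and only the first were named. Where a gene had several probe sets, the one with the highest mean over all arrays represented it. Those ending in x_at or s_at may bind related transcripts. Promoter windows and gene order came from RefSeq (GRCh38.p14).

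Tests were two-sided and came from limma 3.58.1 in R 4.3.3 (lmFit, then eBayes, without covariates), with Benjamini-Hochberg adjustment over 54613 probe sets. Calls were made where the adjusted p was under 0.05 and the change reached the fold minimum of the study's methods, 1.25 (0.32 on the log2 scale). SAM, the test named there, was written from its description and run as an alternative (delta 0.53, 20 relabelings of the arrays, constant at the 55th percentile). Of the steps, only limma and SAM were tried on simulated data. The simulated noise was independent between probe sets, so effects shared across an array were not covered. The text names every RGS member with its probe sets and, of each other list, up to 4 genes per direction that passed the test. Genes outside this rule (RGS1, RGS7, RGS20, GNAQ, GNA11, the Gi subunits, GNAS, PLCB4, PLCB1 and the genomic neighbours) were named after their values were seen, as were the cell type markers PGR, KRT8, KRT18, ESR1, EPCAM, PAX8, CDH1, COL1A1, PDGFRB and CSPG4 and the genes named as not analysed. The members and lists were chosen with earlier results of these data known. The correlation between arrays of a group was 0.988 to 0.997, and no array duplicated another. The number of arrays limits the precision. The alternatives were a replicate block, SAM, the treat test, an intensity trend, other fold minimums, leaving out dim probe sets, scaling to 9 housekeeping genes, a second quantile normalization, leaving out arrays and averaging the probe sets of a gene.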

Additional observations from a re-analysis of the deposited data

How the results depend on the processing

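RGS2 and RGS3 gave 2 calls among the RGS probe sets, out of 1107 among all. Their log2 fold changes could differ only under both other scalings, with 1 array left out or, for RGS3, with its probe sets averaged. The direction could not turn with 1 array left out, because the groups did not overlap. Averaging could not turn it either, since RGS2 has 1 probe set and all 3 of RGS3 were negative. Under each scaling the log2 fold change was 1.21 for RGS2 and -0.71 for RGS3. In the rest the log2 fold change was the same by construction. RGS2 and RGS3 were both called with an intensity trend, without dim probe sets, under both other scalings and with SAM. Without a fold minimum the rule is looser by construction, so both stayed called. The RGS calls numbered 0 in the treat test, 1 (RGS2) with a 2-fold minimum, 1 (RGS2) with a gene's probe sets averaged, and 0 to 2 with 1 array left out. Over all probe sets the calls numbered 2181 with SAM (1313 higher, 868 lower), 455 in the treat test (318 and 137), 510 with a 2-fold minimum (357 and 153) and 518 to 1190 with 1 array left out. The treat test and the 2-fold minimum are stricter by construction. The cause of the other differences was not tested. Of 461 values of uncalled RGS probe sets under these alternatives, 32 changed sign without being called. Among these values, a sign could change only under the scalings and with 1 array left out. PLCB4 and ZNF618, uncalled in the text, were called with SAM. ADRA2C, GRK4 and the GNAS probe set were not called in the treat test or with the 2-fold minimum.

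Whether the replicate numbers of the labels pair the arrays could not be settled. The deviations from the group means correlated at -0.02 for the arrays numbered 1, 0.52 for those numbered 2 and 0.33 for those numbered 3. MPA 1 correlated best with control 2 (0.08) and MPA 3 with control 1 (0.35), which carry another number. The arrays numbered 2 were the lowest of both groups for 28.6% of all genes and the highest of both for 16.2%. With the number as a replicate block, 2033 probe sets were called (1208 higher, 825 lower), and among the RGS probe sets still 2, RGS2 (adjusted p = 0.000132) and RGS3 (0.00971). PLCB4 (0.00136), ZNF618 (0.0197) and the markers CDH1 (0.00277), COL1A1 (0.0101) and EPCAM (0.0346) were called with the block too. EPCAM was also called with an intensity trend, without dim probe sets and under both scalings (0.0184 to 0.0489), PAX8 with the trend (0.0307), and all 4 markers with SAM.

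With 3 arrays a group, intervals of single probe sets were wide, and signals near or under the array median, as for RGS4 and most RGS5 probe sets, cannot show whether the gene was expressed.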
